A study of Mus musculus with 32 samples.

Results

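The comparison described here set female Alport mice, which lack both copies of Col4a3 (Col4a3-/-), against female control mice, which carry 1 disrupted copy (Col4a3+/-), with every mouse in it fed nicotinamide riboside (NR). It took in 8 of the 32 mice of the study, 4 Alport and 4 control, chosen by their labelled sex, genotype and treatment. All were of the strain C57BL/6J-Col4a3tm1Dec and were sampled at 25 weeks of age, after NR had been mixed into a purified diet at 0.5% by weight from 10 weeks of age. The other groups used below, each of 4 mice, were females of both genotypes on the purified diet alone (vehicle) and males of both genotypes on NR or vehicle. Polyadenylated RNA of the whole kidney cortex was sequenced, so no cell type was isolated. Since the controls are heterozygous, no mouse in the study carried 2 intact copies of Col4a3, and since all 8 mice received NR, the comparison measures genotype on NR and not the effect of NR.

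Col4a3 encodes a chain of the type IV collagen network of the glomerular basement membrane, the filter between blood and urine. In Alport syndrome this network is lost, protein leaks into the urine, podocytes are injured, and the tubules and interstitium follow with inflammation and fibrosis. The proximal tubule depends on mitochondrial oxidation of fatty acids, which needs NAD+, and NR is a vitamin precursor that cells convert to NAD+ through NR kinases. The comparison asks which transcripts still separated Alport from control kidneys when both received the precursor.

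Libraries of the 8 mice held 16621944 to 25963664 counts and 18488 to 19615 genes with at least 1 count. Levels are given as CPM, counts scaled to a library total of 1000000 after TMM normalization (trimmed mean of log ratios between libraries), in the order of mice 1 to 4 of each group, and tests compared the raw counts by edgeR's quasi-likelihood method with Benjamini-Hochberg adjustment over all genes tested. The Y-linked transcript Ddx3y reached at most 1.42 CPM in these females and at least 48.0 CPM in the 16 males, matching the labelled sex. Transcripts of the proximal tubule, distal nephron and podocyte were abundant in every mouse, and those of the adrenal gland summed to 4.23 to 7.04 CPM over the 11 listed. The first principal component of the 8 mice carried 48.7% of the variance and placed the Alport mice at 48.6, 46.8, 25.1 and 25.0 and the controls between -38.3 and -31.8. The second carried 19.9% and placed Alport mouse 4 at 57.7, with the other 3 Alport mice between -24.5 and 4.92. Alport mouse 4 thus stood apart from its group, and values without it are given below where they change a call or move a count by over 1.5 times.

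Genotype changed the level of 4155 of 15109 genes tested at an adjusted p below 0.05, which is 27.5%. Of these, 2171 rose (14.4%) and 1984 fell (13.1%) in Alport mice. The rises were larger than the falls, since 1000 genes rose at least 2-fold (6.62%) and 201 fell at least 2-fold (1.33%). The median log2 fold change (Alport over control, as throughout) of all genes was 0.02. Ranges of the 4 Alport and 4 control mice did not overlap in 1953 genes with higher (12.9%) and 2715 with lower Alport levels (18.0%). Without Alport mouse 4, 2550 genes rose and 2445 fell. The spread within the NR-treated Alport group was wider than in the other female groups, with a median SD of log2 CPM over 14654 genes of 0.21, against 0.14 in NR-treated controls and 0.15 and 0.14 in vehicle-treated Alport and control mice.

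Col4a3 itself, the targeted gene (chr1:82586921-82722059, mm10), was read at 48.8, 50.8, 57.5 and 59.3 CPM in the Alport mice and at 113, 105, 124 and 122 CPM in the controls. No Alport mouse reached the lowest control, and the log2 fold change was -1.07 ± 0.09 SE (adjusted p = 0.000176). The targeted gene was still counted in every Alport mouse, and a count per gene does not show which exons the reads came from. Its neighbour Col4a4 (chr1:82448419-82587034), which encodes a partner chain and is transcribed in the opposite direction, overlapped between genotypes at 156, 143, 149.5 and 198 CPM in Alport and 166, 166, 191 and 175 CPM in control mice (-0.07, adjusted p = 0.661). The gene models of Col4a3 and Col4a4 share 114 bases in the RefSeq annotation, and whether the counting used strand is not given in the sources used here, so reads from that stretch cannot be assigned. Col4a5, the third chain of the same network, also overlapped (0.21, adjusted p = 0.17). The chains of the common basement membrane network moved the other way. Col4a1 stood at 410.1, 445, 264 and 240.5 CPM in Alport mice and 149, 133, 152 and 150.5 CPM in controls, a log2 fold change of 1.26 ± 0.19 SE (adjusted p = 0.0013). Col4a2 stood at 304, 302, 207 and 225 against 109, 102, 112 and 118 CPM (1.27 ± 0.13 SE, adjusted p = 0.000272), and Col4a6, a chain of Bowman's capsule and tubular basement membranes, stood at 5.8, 5.3, 3.62 and 3.89 against 2.18, 1.86, 2.29 and 1.63 CPM (1.27 ± 0.23 SE, adjusted p = 0.00335). In all 3 of these chains the lowest Alport mouse lay above the highest control, with Alport mice 1 and 2 higher than mice 3 and 4.

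**Figure D1:**
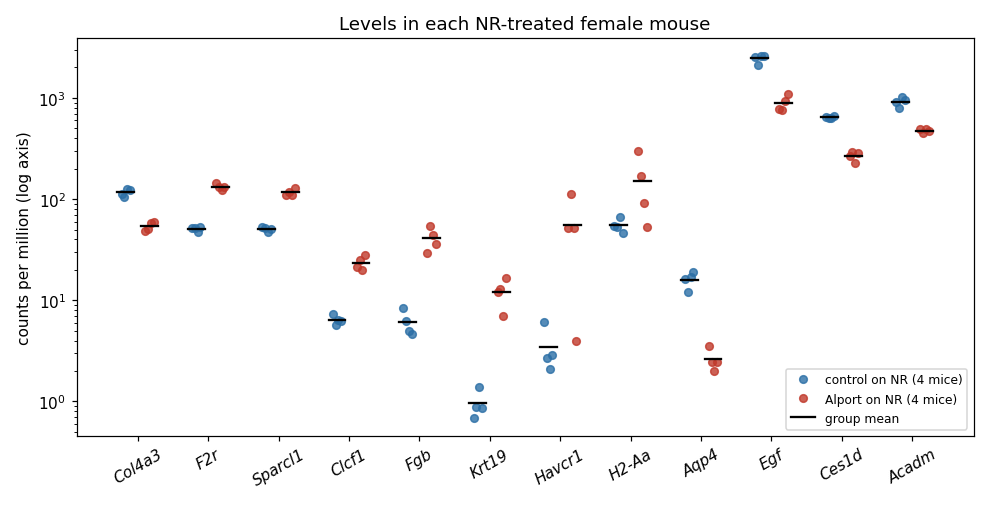
CPM, on a log axis, of 12 genes in each of the 4 control and 4 Alport females on NR, with points for mice and bars for group means. Col4a3, Aqp4, Egf, Ces1d and Acadm lay lower in every Alport mouse than in every control, and Havcr1 and H2-Aa were the 2 genes shown whose groups overlapped, each through Alport mouse 4.

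Among genes that rose at least 2-fold, several of those with the smallest p-values lay close together within each genotype. F2r, the thrombin receptor PAR1, stood at 144, 131, 122 and 132 CPM in Alport mice and 52.1, 52, 47.3 and 53.3 CPM in controls, a log2 fold change of 1.41 ± 0.08 SE (adjusted p = 5.85e-05). Sparcl1, a matricellular protein of the SPARC family, stood at 111, 118, 109.6 and 128 against 52.4, 51.5, 47.6 and 50.6 CPM (1.25 ± 0.08 SE, adjusted p = 7.64e-05). Pros1, which encodes the anticoagulant protein S, stood at 74.7, 64.1, 59.5 and 58.7 against 24.4, 23.8, 25 and 24.2 CPM (1.44 ± 0.09 SE, adjusted p = 8.17e-05). In these 3 genes Alport mouse 4 was not separate from the rest.
Synpo, an actin-binding protein of podocyte foot processes, stood at 153, 168, 139.7 and 148 against 79, 77.6, 72.5 and 81.2 CPM (1.01 ± 0.08 SE, adjusted p = 0.00017). The others of the leading 10 were C7, a component of the terminal complement complex (2.87), Cpne7, a calcium-dependent membrane-binding protein (1.83), Sfn, the epithelial 14-3-3 protein sigma (1.70), the protease Capn5 (1.01), and the cytokine gene Clcf1 and the cytokine receptor gene Osmr described next. C7 was read at 23.5, 24.1, 17.3 and 24.3 CPM in Alport mice and 4.5, 2.89, 2.04 and 3.02 CPM in controls.

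Cytokines of the interleukin-6 family signal through gp130 and STAT3, and fibrinogen, the clotting protein made of 3 chains encoded side by side on chromosome 3, is a known acute-phase target of that pathway. Clcf1, a ligand of the family, stood at 21.1, 24.8, 20.0 and 28.3 CPM in Alport mice and 7.27, 5.67, 6.36 and 6.27 CPM in controls, a log2 fold change of 1.92 ± 0.14 SE (adjusted p = 0.000154). Osmr, the oncostatin M receptor subunit that pairs with gp130, stood at 32.4, 41, 29 and 32.2 against 10.5, 8.87, 9.16 and 11.8 CPM (1.77 ± 0.14 SE, adjusted p = 0.000154). Every Alport mouse lay above every control in both genes. A further 4 genes of the pathway, chosen after their values were seen, also rose. They were the ligand Lif (2.70, adjusted p = 0.00408), the receptor Il6ra (1.21, adjusted p = 0.000368), the transcription factor Stat3 (0.95, adjusted p = 0.000805) and the feedback inhibitor Socs3 (2.41, adjusted p = 0.0002). The remaining members of the pathway were not counted, and Il6 itself was too low to test. Activity of the pathway was not tested.

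The 3 fibrinogen chains, which the list of injured-tubule markers holds, rose together in all 4 Alport mice. Fgb was read at 29.3, 54.8, 44.7 and 35.7 CPM in Alport mice and 8.46, 6.24, 5.03 and 4.64 CPM in controls, a log2 fold change of 2.79 ± 0.23 SE (adjusted p = 0.00017). Fga was read at 131, 199.5, 106 and 168 against 53.9, 41.2, 31.7 and 32.4 CPM (1.96 ± 0.22 SE, adjusted p = 0.000338). Fgg was read at 133, 228, 110.1 and 145 against 38.2, 31.4, 14 and 18.7 CPM (2.62 ± 0.32 SE, adjusted p = 0.000517). The Alport ranges of all 3 chains lay above the control ranges, and Alport mouse 4 was within the range of the other Alport mice for Fgb, Fga and Fgg. The 250 bases before the RefSeq start site of each chain (GRCm38.p6, 5′ to 3′ on the gene's strand) are printed because these genes moved together, with CTGGGA, the core of the interleukin-6 response element known from fibrinogen promoters, in capitals. The stretches are chr3:83025903-83026152 (plus strand) for Fga, chr3:83049864-83050113 (minus strand) for Fgb and chr3:83007474-83007723 (plus strand) for Fgg.
Fga: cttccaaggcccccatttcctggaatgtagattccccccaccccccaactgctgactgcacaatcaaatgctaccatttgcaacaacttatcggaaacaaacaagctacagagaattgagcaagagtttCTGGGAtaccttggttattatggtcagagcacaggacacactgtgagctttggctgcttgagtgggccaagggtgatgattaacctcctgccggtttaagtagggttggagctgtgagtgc
Fgb: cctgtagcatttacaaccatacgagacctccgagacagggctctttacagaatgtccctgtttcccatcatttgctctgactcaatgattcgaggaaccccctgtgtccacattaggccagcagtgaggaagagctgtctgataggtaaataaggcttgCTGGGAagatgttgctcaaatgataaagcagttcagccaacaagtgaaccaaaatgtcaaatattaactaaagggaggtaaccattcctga
Fgg: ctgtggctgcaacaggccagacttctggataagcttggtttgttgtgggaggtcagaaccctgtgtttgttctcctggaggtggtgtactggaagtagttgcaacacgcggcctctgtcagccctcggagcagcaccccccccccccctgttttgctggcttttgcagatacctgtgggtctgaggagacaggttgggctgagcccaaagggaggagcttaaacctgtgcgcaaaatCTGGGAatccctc
CTGGGA was searched on both strands and was found 1 time in each of the 3 stretches, on the gene's own strand, beginning 121 bases before the start site of Fga, 91 before that of Fgb and 13 before that of Fgg. The same letters occur in 26.8% of the 27025 genes with such a stretch, so a match is a description of these bases and shows no binding.

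Markers of injured and failed-repair tubule rose in 27 of 31 tested genes and fell in none, with a median log2 fold change of 1.68. Krt19, a keratin of dedifferentiating epithelium, stood at 12, 12.9, 6.96 and 16.5 CPM in Alport mice and 0.693, 0.876, 1.4 and 0.862 CPM in controls (3.71 ± 0.31 SE, adjusted p = 0.00017). Tnfrsf12a, the receptor of the cytokine TWEAK, stood at 37.4, 40.9, 26.7 and 43 against 13.7, 9.38, 10.8 and 10.8 CPM (1.77 ± 0.17 SE, adjusted p = 0.0002). Alport mouse 4 was the highest of its group for both genes. Lcn2, the secreted injury marker NGAL, was read at 50.2, 66.7, 30.1 and 46.4 CPM in Alport mice and 8.66, 2.06, 1.4 and 2.92 CPM in controls (3.70 ± 0.47 SE, adjusted p = 0.000638). Havcr1, which encodes the proximal tubule injury marker KIM-1, behaved differently among the mice. It stood at 51.7, 113, 52.1 and 3.97 CPM in Alport mice 1 to 4 and at 6.04, 2.68, 2.1 and 2.87 CPM in the controls, so that Alport mouse 4 lay inside the control range while the other 3 lay far above every control. Its log2 fold change was 4.03 ± 0.79 SE (adjusted p = 0.00476), became 4.41 (adjusted p = 5.16e-05) without mouse 4, and was 3.35 (adjusted p = 0.159) by limma-voom. Vcam1, an adhesion molecule of failed-repair tubule, stood at 179.8, 139, 94.5 and 20.3 against 17.9, 13.1, 12.3 and 12 CPM (3.01 ± 0.52 SE, adjusted p = 0.00258) and was likewise lowest in Alport mouse 4, which there stayed above every control.

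Transporters and receptors of the proximal tubule fell in 29 of 39 tested genes and rose in 1, with a median log2 fold change of -0.75. The water channel gene Aqp1 stood at 461, 432, 518 and 405 CPM in Alport mice and 1056, 1005, 911 and 1001 CPM in controls (-1.09 ± 0.10 SE, adjusted p = 0.000189). Slc3a1, the heavy subunit of the cystine transporter, stood at 369.9, 367, 347 and 295 against 703, 707, 699 and 700.1 CPM (-0.99 ± 0.09 SE, adjusted p = 0.0002). Cubn, which encodes the protein-uptake receptor cubilin, stood at 258, 291, 318 and 281 against 537, 616, 522 and 589.9 CPM (-0.94 ± 0.09 SE, adjusted p = 0.000238). Groups did not overlap for these 3 genes, and the Alport mice lay close together. Slc13a1, the sodium sulfate cotransporter, was the one transporter that rose (528 to 650.0 against 387 to 479.5 CPM, 0.44, adjusted p = 0.00972). In bulk tissue, fewer cells of a type and less RNA per cell cannot be told apart.

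Fewer markers of the later nephron passed the test, with 7 of 30 lower, none higher and a median of -0.27, although Aqp4, Egf and Pvalb fell further than the transporters named above. Aqp4, a basolateral water channel, stood at 3.55, 2.45, 2.02 and 2.43 CPM in Alport mice and 16.2, 12, 17.1 and 18.9 CPM in controls (-2.58 ± 0.21 SE, adjusted p = 0.00017). Egf, the growth factor made by the thick ascending limb and distal tubule, stood at 776, 754, 932 and 1104 against 2548, 2107, 2600 and 2600 CPM (-1.43 ± 0.14 SE, adjusted p = 0.000251). Pvalb, a calcium-binding protein of the distal convoluted tubule, stood at 10.2, 8.15, 13.9 and 8.2 against 28.8, 35.9, 30.9 and 35.9 CPM (-1.66 ± 0.17 SE, adjusted p = 0.000251). The anion exchanger gene Slc26a4 of intercalated cells also fell, with a mean of 63.5 CPM in Alport and 130.2 CPM in control mice (adjusted p = 0.000251). Without Alport mouse 4, 15 of the 30 genes fell and the median was -0.38.

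Genes with the smallest p-values among those that fell at least 2-fold were mostly enzymes. Ccbl2, a kynurenine aminotransferase, stood at 47.6, 34.5, 40.1 and 41.1 CPM in Alport mice and 114, 115, 107 and 114 CPM in controls (-1.42 ± 0.10 SE, adjusted p = 0.00011). Ces1d, a carboxylesterase, stood at 269.5, 291, 229.5 and 288 against 652, 633, 639 and 669.5 CPM (-1.23 ± 0.09 SE, adjusted p = 0.000154). Cyp51, the sterol demethylase of cholesterol synthesis, stood at 114, 103, 127 and 98.1 against 271, 234, 279.5 and 274 CPM (-1.22 ± 0.10 SE, adjusted p = 0.00017). The controls of each gene lay within a narrow band, and every Alport mouse was below it. The methionine cycle enzyme Ahcy and the next enzyme toward cysteine in the list, Cth, fell by 1.05 and 1.05 on the log2 scale. Mccc2 of leucine breakdown fell by 1.08, the steroid reductase Akr1d1 by 1.41 and the glucuronosyltransferase family member Ugt3a1 by 1.37. Aqp4 and Col4a3 made up the rest of the 10.

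Enzymes of the citric acid cycle and pyruvate entry fell in 24 of 26 genes and rose in none, with a median of -0.50. Sucla2, a succinyl-CoA ligase subunit, stood at 138, 132, 146 and 119 CPM in Alport mice and 236, 228, 234 and 234 CPM in controls (-0.76 ± 0.08 SE, adjusted p = 0.000283). Pdha1, a subunit of pyruvate dehydrogenase, stood at 403, 408, 429.5 and 403 against 638, 636, 627 and 636 CPM (-0.59 ± 0.07 SE, adjusted p = 0.000562). Idh3b, a subunit of the NAD-dependent isocitrate dehydrogenase, stood at 224, 230.1, 228 and 225 against 348, 355, 336 and 346 CPM (-0.57 ± 0.07 SE, adjusted p = 0.000422). The change in each was under 2-fold and yet wider than the spread of either group. Respiratory chain subunits fell in 29 of 40 genes with a median of -0.46, among them Ndufs1 of complex I (-0.70, adjusted p = 0.000399) and Uqcrc1 of complex III (-0.58, adjusted p = 0.00066). Genes of gluconeogenesis and fructose metabolism fell in 12 of 17 with a median of -0.70, among them the fructokinase gene Khk, which stood at 421, 411, 412 and 354 against 782, 865, 673 and 740.1 CPM (-0.90 ± 0.10 SE, adjusted p = 0.000349). Pck1, the entry enzyme of gluconeogenesis, was read at 3759, 4896, 2172 and 2383 CPM in Alport mice and 7350, 7071, 8190 and 7223 CPM in controls (-1.14 ± 0.24 SE, adjusted p = 0.00645).

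Of the carnitine shuttle and mitochondrial beta-oxidation genes, 14 of 25 fell and none rose, with all 25 estimates below 0 and a median of -0.42. Acadm, the medium-chain acyl-CoA dehydrogenase, stood at 494, 452, 488 and 467 CPM in Alport mice and 912, 800.4, 1013 and 953 CPM in controls (-0.91 ± 0.10 SE, adjusted p = 0.000276). Cpt1a, the carnitine palmitoyltransferase that admits long-chain fatty acids to mitochondria, stood at 406, 338, 446 and 719 against 597, 599.6, 564 and 619 CPM and did not pass the test (-0.28 ± 0.20 SE, adjusted p = 0.317). Acadl, the long-chain dehydrogenase, overlapped between groups too (-0.25, adjusted p = 0.174). Without Alport mouse 4 both passed the test, Cpt1a at -0.55 (adjusted p = 0.00233) and Acadl at -0.35 (adjusted p = 0.0349). In Cpt1a it was Alport mouse 4 that exceeded every control while mice 1, 2 and 3 lay below every control. Without mouse 4, 24 of the 25 genes of the list fell, with a median of -0.51. Peroxisomal beta-oxidation and peroxisome genes fell in 12 of 25 with a median of -0.35, and in 20 of 25 without mouse 4. Nudt19, a peroxisomal coenzyme A diphosphatase, had the smallest p at 220.0, 168, 158 and 124 against 536, 397, 574 and 414 CPM (-1.48 ± 0.18 SE, adjusted p = 0.000548).

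Transcripts of the nuclear receptors and coactivators that drive these enzymes fell in 6 of 18 genes, with a median of -0.29, and in 11 of 18 without Alport mouse 4. Hnf4a, the hepatocyte nuclear factor of proximal tubule identity, stood at 494, 576, 543 and 539.9 CPM in Alport mice and 867, 995, 832 and 913 CPM in controls (-0.71 ± 0.09 SE, adjusted p = 0.00066). Esrra, the estrogen-related receptor alpha, fell (-0.60, adjusted p = 0.00291), as did Tfam, the mitochondrial transcription factor, at 35.7, 34, 35.1 and 38 against 54.8, 48.2, 56.1 and 51 CPM (-0.52 ± 0.08 SE, adjusted p = 0.00149). Ppara, the fatty acid receptor PPARα, stood at 43.1, 37.9, 49.2 and 84.6 against 75.2, 91.3, 73.1 and 86.8 CPM and did not pass the test (-0.56 ± 0.22 SE, adjusted p = 0.0797). Neither did its partner Rxra (-0.22, adjusted p = 0.131) or the coactivator PGC-1α encoded by Ppargc1a (-0.23, adjusted p = 0.18). All 3 passed it without Alport mouse 4, Ppara at -0.88 (adjusted p = 0.000251), Rxra at -0.29 (adjusted p = 0.0236) and Ppargc1a at -0.33 (adjusted p = 0.0292). In Ppara and Ppargc1a, Alport mouse 4 lay within the control range and mice 1, 2 and 3 below it. Among other PPARα targets of lipid handling, 8 of 33 fell (5 without control mouse 1 or 4), none rose and the median was -0.05, which ran from -0.21 (without Alport mouse 4) to 0.17 (without control mouse 3). Slc27a2, a fatty acid transport protein, fell in all mice at 1677, 1346, 1436 and 1755 against 3469, 3331, 3450 and 3487 CPM (-1.11 ± 0.11 SE, adjusted p = 0.000251). Pdk4, the pyruvate dehydrogenase kinase induced by fasting, was read at 57.1, 41.6, 82.2 and 429 against 53.6, 50.5, 59.9 and 79.3 CPM (1.36 ± 0.64 SE, adjusted p = 0.14). It was highest in Alport mouse 4, without which its log2 fold change was 0.02. Pdk4 was chosen after its values were seen.

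Genes of NAD synthesis and salvage fell in 11 of 23 and rose in 1, with a median of -0.35. The 4 largest falls were in the kynurenine route, which makes NAD from tryptophan. Kmo, the kynurenine monooxygenase, stood at 78.9, 77.1, 90.7 and 90.3 CPM in Alport mice and 163, 199, 162 and 162 CPM in controls (-0.99 ± 0.09 SE, adjusted p = 0.000224). Afmid, the formamidase before it, stood at 37.9, 52.1, 37.7 and 33.8 against 79, 79.9, 74.6 and 74.7 CPM (-0.89 ± 0.12 SE, adjusted p = 0.000874). Kynu and Haao, the enzymes after it, fell as well (-0.83, adjusted p = 0.00364 and -0.98, adjusted p = 0.00229). Nmrk1, the kinase that phosphorylates NR, was read at 50.6, 48.6, 57.9 and 60.3 CPM in Alport mice and 73.8, 89.5, 66.2 and 80.3 CPM in controls (-0.47 ± 0.11 SE, adjusted p = 0.00914). Nampt, the rate-limiting enzyme of salvage from nicotinamide, was read at 138, 122, 188 and 235 against 239, 211, 225 and 227 CPM and did not pass the test (-0.37 ± 0.18 SE, adjusted p = 0.157), but passed it without Alport mouse 4 (-0.56, adjusted p = 0.00813). Naprt of the nicotinic acid route fell (-0.50, adjusted p = 0.00183). These last 5 genes (Kynu, Haao, Nmrk1, Nampt and Naprt) were picked from the list after their values were seen. The nucleoside transporter gene Slc29a1 was the one that rose (0.48, adjusted p = 0.012). Among NAD-consuming enzymes, 4 of 16 rose and 2 fell, with a median of 0.09 and 8 estimates on each side of 0. Of all genes 14.4% rose and 13.1% fell, so the 2 falls were near the share of all genes and show no result about the list. Parp14 (1.12, adjusted p = 0.00211) and the NAD hydrolase gene Cd38 (1.03, adjusted p = 0.00292) rose, with Cd38 at 12.8, 12.6, 13.3 and 13.1 against 5.89, 4.33, 7.38 and 8.33 CPM. The mitochondrial deacylases Sirt3 (-0.56, adjusted p = 0.00228) and Sirt5 (-0.53, adjusted p = 0.00813) fell.

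Extracellular matrix genes rose with wide differences among the Alport mice. Of interstitial collagens, 12 of 14 rose, none fell and the median log2 fold change was 1.62. Col1a2, a chain of type I collagen, stood at 313, 258, 121 and 78.7 CPM in Alport mice and 48.7, 37.5, 41.7 and 39 CPM in controls (2.24 ± 0.37 SE, adjusted p = 0.00214). Col12a1, a collagen bound to fibrils, stood at 33.1, 33.8, 22.7 and 24.7 against 10.4, 9.69, 11.9 and 11 CPM (1.45 ± 0.15 SE, adjusted p = 0.000251). Col1a2 varied widely among the Alport mice, and its lowest value, in mouse 4, was still above every control. Other matrix genes rose in 28 of 31 with a median of 1.77. Lox, which cross-links collagen, stood at 24.6, 17.6, 10.8 and 9.4 against 3.56, 2.22, 3.12 and 2.63 CPM (2.47 ± 0.31 SE, adjusted p = 0.000645), and Dcn, the proteoglycan decorin, at 70.7, 49.4, 40.3 and 38.3 against 17.8, 15.9, 14.8 and 12.7 CPM (1.74 ± 0.20 SE, adjusted p = 0.000338). Fn1, which encodes fibronectin, stood at 161, 139.8, 60.5 and 32.9 against 31.8, 27.8, 21.8 and 23.6 CPM (1.95 ± 0.42 SE, adjusted p = 0.0075), and mouse 4 exceeded the highest control only narrowly. Basement membrane genes rose in 14 of 20 and fell in 1, Col4a3, with Nid1 (1.17, adjusted p = 0.000997) and the perlecan gene Hspg2 (0.84, adjusted p = 0.000874) among those that rose. Fibroblast and myofibroblast markers rose in 12 of 16 with a median of 0.83, including the pericyte receptor gene Pdgfrb (89.4, 101, 66.2 and 54.8 against 28.6, 34.7, 31.6 and 31.9 CPM, 1.33, adjusted p = 0.00069).

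Podocyte markers rose in 14 of 20 and fell in none, with a median of 0.75. Kirrel, a slit diaphragm protein, stood at 47.6, 43.2, 31.3 and 37.8 CPM in Alport mice and 16.3, 13.2, 15.6 and 16.6 CPM in controls (1.41 ± 0.14 SE, adjusted p = 0.000236), and Podxl, the coat protein podocalyxin, at 459, 448, 435 and 502 against 278, 292, 272 and 289 CPM (0.74 ± 0.08 SE, adjusted p = 0.000273). Cdkn1c, a cell cycle inhibitor of mature podocytes, stood at 121, 116, 85.7 and 75.1 against 49.1, 46.5, 41.7 and 34.1 CPM (1.25 ± 0.17 SE, adjusted p = 0.000784). The summed level of the 20 markers was 1612 to 1839 CPM in Alport and 1072 to 1145 CPM in control mice. Endothelial markers rose in 10 of 21 with a median of 0.39, and in 6 without control mouse 2 or Alport mouse 3, among them the endothelial cadherin gene Cdh5 (0.59, adjusted p = 0.000596). CPM are relative levels, and proximal tubule transporters summed to 13020 to 14490 CPM in Alport and 23050 to 25760 CPM in control mice. The part of that fall in the higher relative levels of other cell types was not tested.

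Transcripts of macrophages and dendritic cells rose in 20 of 23 genes and fell in none, with a median of 1.94. Lgals3, the lectin galectin-3, stood at 106, 101, 67.2 and 74.2 CPM in Alport mice and 33, 28.4, 30.7 and 30.1 CPM in controls (1.55 ± 0.15 SE, adjusted p = 0.0002). Gpnmb, a glycoprotein of lipid-laden macrophages, stood at 16.1, 17.8, 4.76 and 2.28 against 0.643, 0.722, 0.509 and 0.574 CPM (4.08 ± 0.65 SE, adjusted p = 0.00179). Cd14, the endotoxin co-receptor, stood at 31, 31.5, 23 and 14.1 against 10.7, 7.63, 9.22 and 9.14 CPM (1.47 ± 0.24 SE, adjusted p = 0.00179). In each of these genes, Alport mice 1 and 2 were the highest pair and every Alport mouse exceeded the controls. They were named for small p-values, and over the list every Alport mouse exceeded the controls in 10 of 23 genes (12.9% of all genes). By limma-voom 7 of these 23 genes rose, with a median of 1.62. Genes of antigen presentation by MHC class II rose in 8 of 11 with a median of 1.42 (0.86 without Alport mouse 1), and in 2 by limma-voom. Cathepsin S, encoded by Ctss, stood at 97.5, 70.1, 36.3 and 17.3 against 14.1, 11.3, 16.8 and 11.1 CPM (2.10 ± 0.44 SE, adjusted p = 0.00654). H2-Aa, a class II chain, stood at 297, 168, 90.8 and 52.6 against 54.4, 53.3, 66.9 and 45.9 CPM (1.51 ± 0.43 SE, adjusted p = 0.0255). Mouse 4 lay inside the control range for H2-Aa, the log2 fold change was 0.96 without Alport mouse 1, and the call was lost by limma-voom and in 5 of 8 analyses that left out 1 mouse. The class II count was 10 without Alport mouse 4, 2 without control mouse 2, control mouse 4 or Alport mouse 1, 3 without control mouse 1 or Alport mouse 2, 4 without control mouse 3, and 5 with the replicate number as a block.

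Complement genes rose in 14 of 17 and fell in 1, with a median of 1.54. C3, the central component, stood at 1594, 1682, 1435 and 558 CPM in Alport mice and 322, 206, 213 and 247 CPM in controls (2.45 ± 0.31 SE, adjusted p = 0.000635). C4b stood at 32.9, 30.6, 18.3 and 11 against 4.3, 3.76, 3.63 and 3.64 CPM (2.63 ± 0.32 SE, adjusted p = 0.00048), and Alport mouse 4 had the lowest level of its group in both genes. Cfb, a component of the alternative pathway, was the gene that fell (-0.29, adjusted p = 0.0446), a call that was lost in 6 of 8 analyses that left out 1 mouse. Chemokine and cytokine ligands rose in 14 of 21 with a median of 1.29. Il34, a macrophage growth factor made by tubule, stood at 29, 25, 17.9 and 13.7 against 7.96, 5.16, 6.3 and 5.03 CPM (1.85 ± 0.25 SE, adjusted p = 0.000761). Cxcl1, a neutrophil attractant, stood at 7.46, 10.9, 3.76 and 3.59 against 1.34, 0.412, 0.382 and 0.574 CPM (3.26 ± 0.50 SE, adjusted p = 0.00147). Interferon-stimulated genes rose in 9 of 25 with a median of 0.72, in 18 without Alport mouse 4 and in 5 without control mouse 2 or 4 or Alport mouse 1 or 2. Irf1 (1.24, adjusted p = 0.00109) and Cxcl10 (2.08, adjusted p = 0.00215) were among those that rose. Lymphocyte markers rose in 8 of 20 with a median of 1.04, in 4 without control mouse 4 or Alport mouse 1, and in 5 without control mouse 3 or Alport mouse 2. All were at low levels, such as Cd4 at 3.64, 2.67, 1.47 and 1.83 against 0.791, 0.928, 1.08 and 0.67 CPM (1.51 ± 0.34 SE, adjusted p = 0.00944). Of 12 neutrophil markers, 4 were high enough to test and 1 rose, Csf3r, which overlapped between groups (1.20, adjusted p = 0.0492) and lost its call in 7 of 8 analyses that left out 1 mouse. Without Alport mouse 4, 2 neutrophil markers rose. Cell cycle genes rose in 12 of 26 with a median of 0.88, and in 4 to 7 without control mouse 2, 3 or 4 or Alport mouse 1 or 2. Top2a, the topoisomerase of dividing cells, stood at 17.3, 19.4, 9.94 and 12.7 against 9.45, 7.73, 6.04 and 8.23 CPM (0.95 ± 0.22 SE, adjusted p = 0.00942).

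Immediate early genes rose in 12 of 18 and fell in none, with a median of 1.12, and the Alport mice scored 1.12, 1.26, 0.67 and 1.36 above the control mean. The stress list governed by ATF4 rose in 9 of 19 and fell in 2, with a median of 0.60. Nupr1, a stress-induced chromatin protein, stood at 50.9, 50.8, 27.6 and 24.2 CPM in Alport mice and 5.34, 5.83, 4.52 and 3.69 CPM in controls (3.02 ± 0.28 SE, adjusted p = 0.000189). Atf5 stood at 31.6, 30.1, 32.4 and 29.1 against 17.7, 17.1, 18.7 and 19.1 CPM (0.80 ± 0.08 SE, adjusted p = 0.000251). Shmt2, the mitochondrial serine hydroxymethyltransferase, fell (-0.57, adjusted p = 0.000544). Gdf15, a secreted stress cytokine chosen after its values were seen, was read at 11, 17.2, 9.94 and 92.2 against 5.64, 3.04, 6.62 and 6.51 CPM (2.62 ± 0.71 SE, adjusted p = 0.0201), with mouse 4 far above the other 3 Alport mice. The log2 fold change of Gdf15 was 1.26 without mouse 4, and the call was lost in 3 of 8 analyses that left out 1 mouse, control mice 1, 2 and 4, and by limma-voom. Shares near those of all genes (14.4% higher and 13.1% lower) were found in several lists, which show no result of their own. NRF2 targets were such a list, with 4 of 30 higher, 4 lower and a median of 0.13 that ran from 0.03 to 0.21 when 1 mouse was left out. Hmox1, heme oxygenase, rose at 40.9, 56.9, 40.7 and 94.7 against 24.2, 19.2, 29.4 and 29 CPM (1.24 ± 0.26 SE, adjusted p = 0.00699), and the bile acid exporter gene Abcc3 fell (-1.46, adjusted p = 0.004). Heat shock and chaperone genes rose in 1 of 21 and fell in 1, with 4 higher without Alport mouse 4 and none without Alport mouse 2 or any 1 control mouse. Glutathione transferases and peroxidases were another, lower in 3 of 25 (5 without Alport mouse 3 or 4) and higher in 1, Mgst2, whose call (1.57, adjusted p = 0.0493) was lost in 7 of 8 analyses that left out 1 mouse. Fatty acid synthesis genes fell in 5 of 21 and rose in 1, and cholesterol genes, also near the share of all genes, fell in 3 of 25 (7 without Alport mouse 3 and 5 without Alport mouse 4). Of 10 tested genes of the renin-angiotensin system 4 fell, led by the protease genes Mme (-0.92, adjusted p = 0.00152) and Ace, which stood at 82.3, 61, 31.1 and 26 against 153, 131, 121 and 156 CPM (-1.45 ± 0.31 SE, adjusted p = 0.00757).

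The 4 Alport mice did not share 1 profile. A list score is the mean log2 CPM of the tested genes of a list less its mean in the 4 NR-treated controls. For macrophage genes the Alport mice scored 2.64, 2.26, 1.35 and 0.40, and the controls -0.17 to 0.15. For class II genes they scored 2.40, 1.63, 0.75 and 0.01, with controls between -0.16 and 0.17. For collagens they scored 1.98, 1.90, 0.99 and 0.37. Mouse 4 thus had the lowest immune and collagen scores, and its class II score lay inside the control range. Injured-tubule genes scored 1.79, 1.95, 1.42 and 1.29, with mouse 4 lowest again but far above the controls. Proximal tubule transporters scored -0.82, -0.90, -0.90 and -1.11, with mouse 4 furthest below the controls. Respiratory chain genes scored -0.52, -0.45, -0.29 and -0.76. On other PPARα targets the first 3 Alport mice scored -0.27, -0.45 and -0.25, control mouse 2 scored -0.36, and Alport mouse 4 scored 0.41, above all controls. NRF2 targets scored 0.03, -0.11, 0.17 and 0.58. No label separates mouse 4 from the rest of its group, and a cause was not tested.

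**Figure D2:**
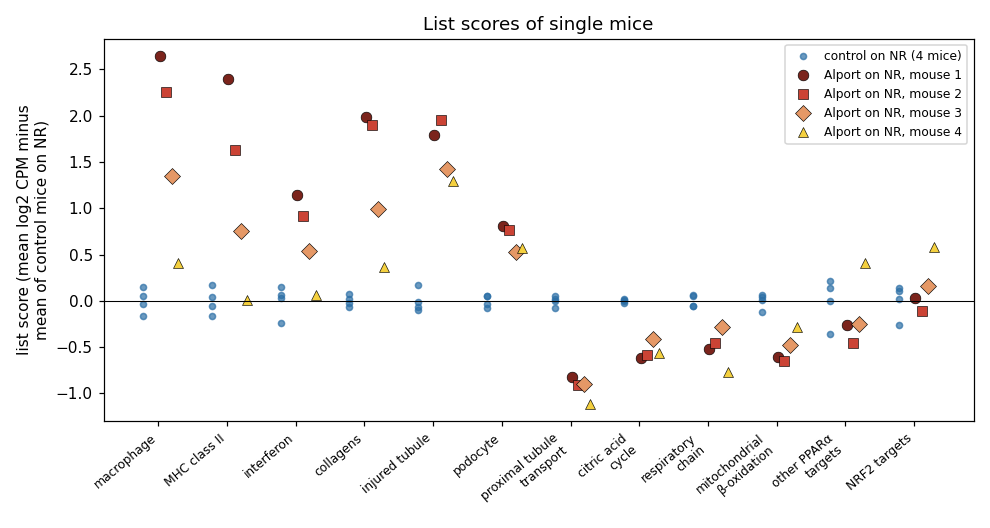
List scores of single mice, the mean log2 CPM of each of 12 gene lists less the mean of the 4 NR-treated control females. Alport mouse 4 (triangle) sat lowest of the 4 Alport mice for macrophage, MHC class II, interferon and collagen genes and highest for other PPARα targets and NRF2 targets, while injured-tubule and proximal tubule transport scores of all 4 Alport mice lay apart from the controls.

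The same genotype comparison in vehicle-treated females uses 8 other mice, and more genes passed the test there. It called 7199 of 15709 genes (45.8%), 3768 higher (24.0%) and 3431 lower (21.8%). Among 15036 genes tested in both, 4148 were called on NR and 6965 on vehicle, and 3529 were called in the same direction on both, which is 85.1% of the NR calls and 50.7% of the vehicle calls. Pearson's r of the log2 fold changes was 0.84 across these genes, which are not independent replicates. A further 617 genes were called on NR only and 3434 on vehicle only. The spread within Alport mice was wider on NR (above), and its part in the lower number of calls was not tested. Sizes were compared on genes chosen in other mice, those called between genotypes in vehicle-treated males (7789 of 15286 genes, 51.0%). Of those also tested in both female comparisons, 3887 were higher in male Alport mice and had a median log2 fold change of 0.73 in females on vehicle and 0.59 in females on NR, and 71.3% of them had a smaller absolute change on NR. The 3668 lower genes had medians of -0.38 and -0.30, and 65.8% had a smaller absolute change on NR. For each NR-treated Alport mouse, the median over these genes of log2 CPM less the gene's mean in NR-treated controls was taken. It was 0.69, 0.60, 0.43 and 0.36 for the higher set and -0.41, -0.39, -0.28 and -0.32 for the lower set. These medians are not list scores. Both sets were chosen for an effect on vehicle, so the choice can favour larger changes on vehicle than on NR.

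**Figure D3:**
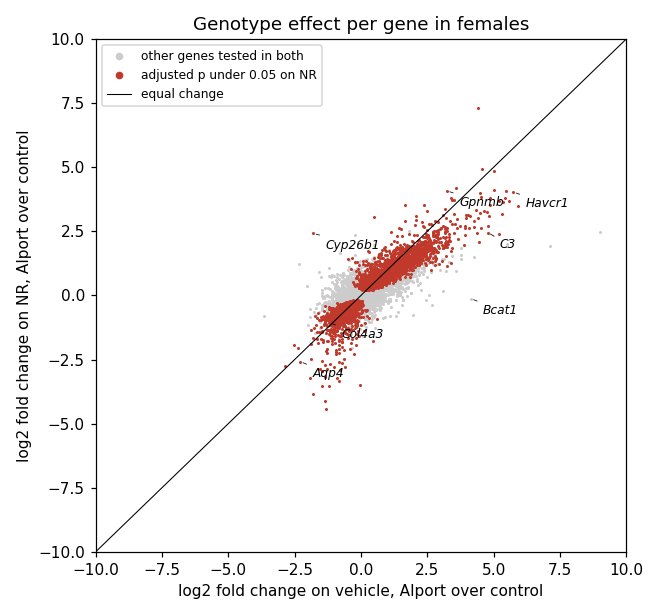
Log2 fold change between genotypes on NR (vertical) against that on vehicle (horizontal) in females, 1 point per gene tested in both, red where the adjusted p on NR was below 0.05, with the line of equal change. Pearson's r was 0.84 across genes, which does not measure distance from that line. C3 and Bcat1 lay below the line and Cyp26b1 above it.

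By list, median fold changes were smaller on NR than on vehicle for most immune and metabolic lists. For interferon-stimulated genes the median was 0.72 on NR and 1.34 on vehicle, with 24 of 25 genes smaller on NR. For class II genes it was 1.42 and 2.33, with 11 of 11 smaller. Each median is over the genes tested in its own comparison, and for class II these were 11 on NR and 12 on vehicle. Counts of smaller changes use genes tested in both. For cell cycle genes it was 0.88 and 1.43, with 26 of 26 smaller. Genes of a list vary together in the same mice, so these counts are not independent. With 1 mouse left out the class II median on NR ran from 0.86 (without Alport mouse 1) to 1.72 (without Alport mouse 4). The class II score of NR-treated Alport mouse 1, 2.40, lay within the 1.89 to 2.67 of vehicle-treated Alport mice, and the others lay below. Over all genes the median absolute log2 fold change was 0.26 on NR and 0.29 on vehicle. In the metabolic lists the difference was narrower, with medians of -0.42 and -0.63 for mitochondrial beta-oxidation (23 of 25 smaller in absolute terms), -0.50 and -0.63 for the citric acid cycle (20 of 26) and -0.46 and -0.50 for the respiratory chain (33 of 40). Other PPARα targets had medians of -0.05 and -0.53, and cholesterol genes -0.09 and -0.49, but both medians on NR changed sign with the mice included. That of PPARα targets ran from -0.21 (without Alport mouse 4) to 0.17 (without control mouse 3), and that of cholesterol genes from -0.27 (without Alport mouse 3) to 0.05 (without Alport mouse 1). Lists that did not follow included podocyte markers, with medians of 0.75 on NR and 0.54 on vehicle (5 of 20 smaller), and fibroblast markers, with 0.83 and 0.77 (8 of 16). Proximal tubule transporters had medians of -0.75 and -0.84, and NAD synthesis genes -0.35 and -0.36.

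**Figure D4:**
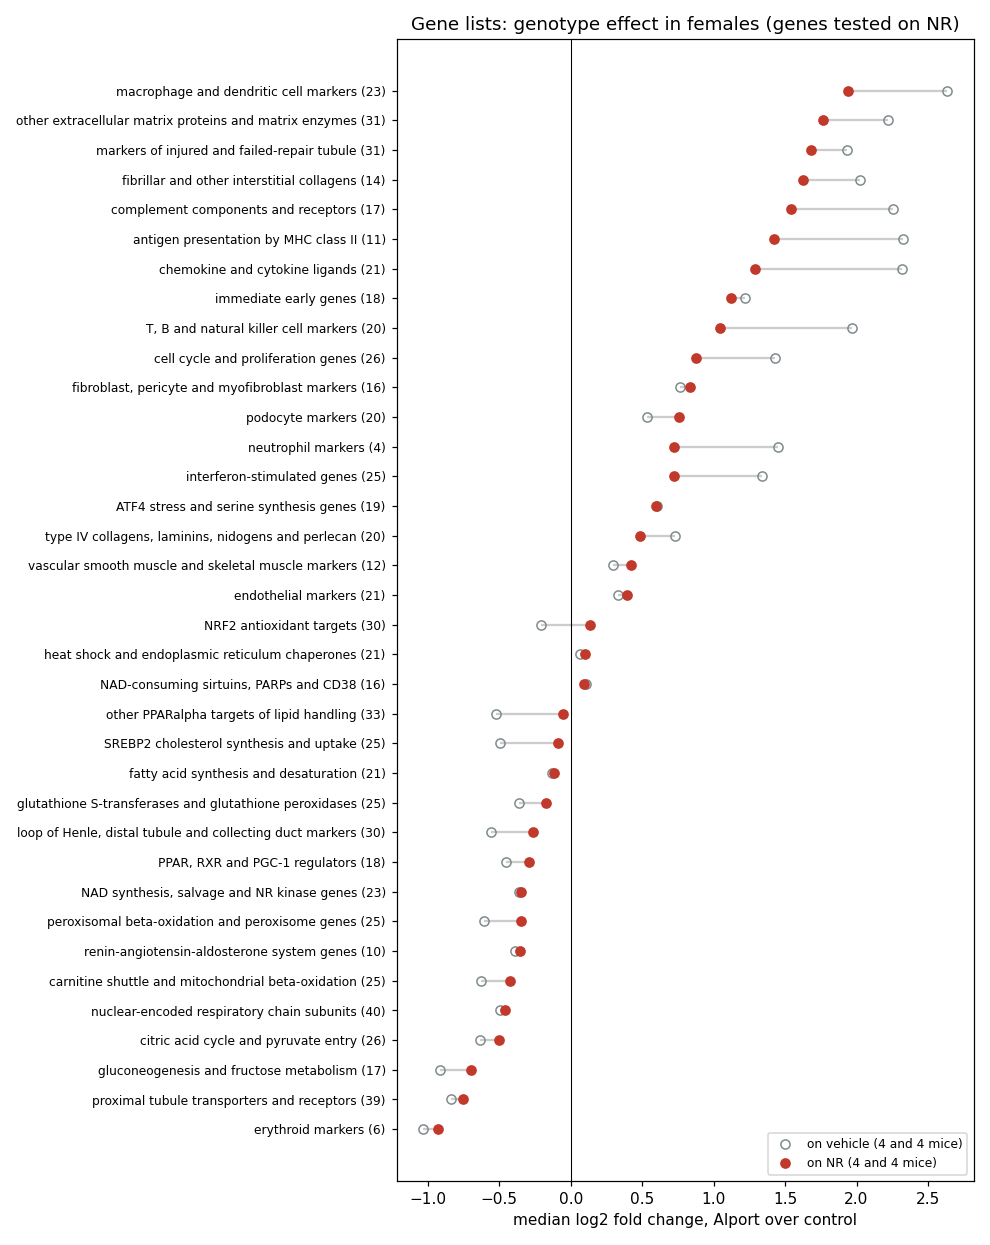
Median log2 fold change between Alport and control females of each gene list on NR (red) and on vehicle (open grey), with the number of genes tested on NR in brackets. Medians on vehicle are over the genes tested on vehicle, which can differ. Macrophage genes had the highest median on NR (1.94, against 2.64 on vehicle), and erythroid genes (-0.93) and proximal tubule transporters (-0.75) had the lowest.

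A test of the difference itself, the interaction of NR with genotype over the 16 females, called 0 of 16064 genes by edgeR, with 1521 (9.47%) at an unadjusted p below 0.05 and a smallest adjusted p of 0.0501. DESeq2 called 11 higher and 19 lower, limma-voom called 0, and edgeR called 21 higher and 24 lower without NR-treated Alport mouse 1. The smaller medians on NR are therefore a description of the lists. The leading genes, chosen after their values were seen, were of several kinds. Bcat1, the cytosolic branched-chain aminotransferase, was read at 1.75, 1.16, 0.871 and 1.87 CPM in Alport and 1.63, 1.08, 1.97 and 1.68 CPM in control females on NR, which overlapped, and at 7.28 to 32.1 against 0.411 to 1.31 CPM on vehicle, an interaction of -4.26 ± 0.64 SE (adjusted p = 0.0501). Acot3, a peroxisomal acyl-CoA thioesterase, stood at 73, 69.1, 57.2 and 84.4 against 102, 92.8, 93.6 and 98.2 CPM on NR and at 30.3 to 40.9 against 89.4 to 99.6 CPM on vehicle (0.94 ± 0.15 SE, adjusted p = 0.0501). Both differed less between genotypes on NR than on vehicle. C3 did too, with log2 fold changes of 2.45 on NR and 4.77 on vehicle (-2.33 ± 0.42 SE, adjusted p = 0.159), and its control mice stood at 206 to 322 CPM on NR and 54.7 to 93.7 CPM on vehicle. Cyp26b1, which breaks down retinoic acid, had opposite signs at 2.42 on NR and -1.80 on vehicle (4.22 ± 0.69 SE, adjusted p = 0.0656). It stood at 24.1, 61.3, 77.4 and 88.2 CPM in Alport and 11.1, 7.12, 12.5 and 17.3 CPM in control mice on NR. With the amino acid transporter gene Slc6a15 (-0.92 and 0.59) it was 1 of 2 genes called in opposite directions.

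**Figure D5:**
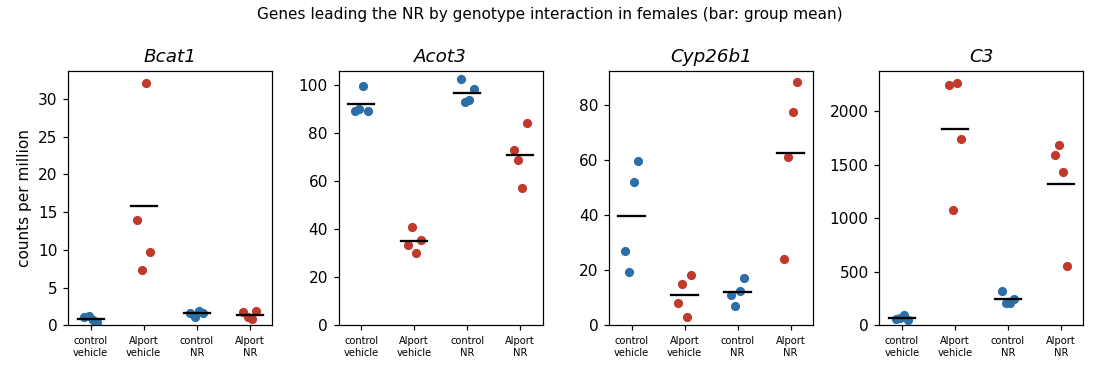
CPM of Bcat1, Acot3, Cyp26b1 and C3 in each mouse of the 4 female groups, with bars at group means and axes that start at 0. Bcat1 was high in vehicle-treated Alport mice alone, Acot3 was lowest there, the mean of Cyp26b1 was highest in NR-treated Alport mice, and C3 was higher in NR-treated than in vehicle-treated controls.

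Males on NR gave no call between genotypes in 14884 genes by edgeR, with 3215 (21.6%) at an unadjusted p below 0.05, while DESeq2 called 1032 higher and 349 lower, limma-voom called 0, and edgeR called 73 higher and 1 lower without male Alport mouse 1. EdgeR also called 319 higher and 58 lower with the replicate number as a block, 180 and 11 without the count filter, and 2335 and 2230 in a fit of all 32 mice, so the count of 0 depends on the analysis. Their median SD of log2 CPM was 0.32 among Alport and 0.22 among control mice. Of 4116 genes called in females and tested in males, 4026 (97.8%) had the same sign in males. Female calls had medians of 0.93 and -0.47, and the same genes had medians of 0.82 and -0.41 in males. These genes were chosen on female values, which favours larger changes in females. The share of matching signs over all genes was not computed, so the 97.8% has no baseline here. Pearson's r was 0.83 across 14737 genes tested in both sexes. By list, male medians were 1.99 for collagens, 2.11 for macrophage genes, 1.48 for injured-tubule genes, -0.67 for proximal tubule transporters and -0.61 for mitochondrial beta-oxidation. Endothelial markers had a median of 0.07 in males and 0.39 in females. The interaction of sex with genotype on NR called 0 of 15703 genes by edgeR, with 407 (2.59%) at an unadjusted p below 0.05, 1 gene by DESeq2, 0 by limma-voom and 2 by edgeR without female Alport mouse 1. Fgb had a log2 fold change of 1.30 in males and 2.79 in females, and Col4a3 -0.63 and -1.07, and neither difference passed the interaction test of edgeR.

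Markers of tissues outside the cortex were also counted. Erythroid genes fell in 4 of 6 with a median of -0.93, and in none without control mouse 1, control mouse 2 or Alport mouse 1, 1 without Alport mouse 3 and 2 without control mouse 3 or 4. Their summed level was 486 to 1319 CPM in Alport and 1237 to 1723 CPM in control mice. Smooth muscle markers rose in 4 of 12 (2 without control mouse 1, 3 or 4 or Alport mouse 2), including Acta2, which also marks myofibroblasts (0.89, adjusted p = 0.00127). Urothelial and deep medullary markers rose in 1 of 6, a call that was lost in 6 of 8 analyses that left out 1 mouse, and adipocyte markers fell in 1 of 6, Pck1, which the proximal tubule expresses. Without Alport mouse 4 these counts were 2 and 2. The adipocyte markers Adipoq, Plin1 and Cfd were too low to test. The part of these tissues in the results above was not tested.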

How the data were processed

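Kidney cortex RNA of 32 mice was sequenced, and the counts of the 8 NR-treated females were the data of the comparison. The authors deposited raw counts per gene and a table of log10 values made from them with the BioJupies service. The deposited log10 table equalled log10 of CPM plus 1 computed from the deposited counts (CPM are counts scaled to a library total of 1000000), with a largest difference of 4.44e-16, and was not used further. The genome build was mm10 per the submitters' processing notes. The aligner settings, gene annotation and use of strand are not given in the sources used here, so overlapping and near-identical genes carry that uncertainty.

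The table held 32544 genes, of which 7938 were at 0 in every mouse, and all value columns could be matched to a mouse by its label. Library totals of the 8 mice ran from 16621944 to 25963664 counts. Counts of any 2 mice of a group differed by at least 7.56 times sampling noise (chi-square per degree of freedom over 12 pairs), so no 2 libraries agreed within sampling noise. The replicates are separate mice, and p-values measure the spread between them.

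Genes were kept with edgeR's filterByExpr (minimum count 10) and tested by edgeR's quasi-likelihood test (edgeR 4.0.16, limma 3.58.1, R 4.3.3) with TMM normalization, on the 8 mice alone, with calls at an adjusted p of 0.05. CPM used TMM factors over the 32 mice. Standard errors were the absolute log2 fold change divided by the square root of F. List scores used log2 CPM with a prior count of 2. Interactions of NR or sex with genotype were fitted on the 16 females or the 16 NR-treated mice. The fits by edgeR, limma-voom and DESeq2 were tried on simulated counts for the genotype effect on NR and the interaction of NR with genotype in females. The other comparisons and summaries were not tried on simulated data.

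The comparison and the gene lists were chosen with earlier results of these data known. Genes were named by rule, namely the 10 smallest p-values in each direction among those changed at least 2-fold with a mean of at least 5 CPM in the higher group, up to 4 genes per list by p-value with up to 3 in the other direction, the type IV collagens and genes the study follows, and any other named gene is marked as chosen after its values were seen. Some genes that the rule names are not reported here. Alternatives were DESeq2 (version 1.42.0), limma-voom, RLE size factors, other count filters, a 2-fold limit, fits of 16 or 32 mice, a replicate block, and leaving out each mouse.

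Deviations of same-numbered Alport and control mice from their group means correlated at 0.042 to 0.163, over 0.1 in 2 of 4 pairs, so the numbers were not taken to pair the mice. Stretches before start sites came from RefSeq (GRCm38.p6) and were matched by symbol for 11167 of the 15109 tested genes.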

Additional observations from a re-analysis of the deposited data

Results flagged for a closer look

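Among 302 groups of 4 mice (the named genes and list scores, in each genotype on NR), 10 held 1 mouse far from the other 3, with a gap over range above Dixon's critical value for 4 samples at 95%. Chance gives about 1 such group in 20. In Alport mouse 4, Gdf15 stood at 92.21 CPM against 9.943 to 17.19 in the other 3, Pdk4 at 428.8 against 41.63 to 82.15, Khk at 353.6 against 411.4 to 421.3, and the score of NAD-consuming enzymes at 0.063 against 0.177 to 0.199. In Alport mouse 3, C7 stood at 17.27 CPM against 23.48 to 24.3 and Ndufs1 at 233.5 against 196.5 to 200.9. In control mouse 2, Col4a1 stood at 133 CPM against 149 to 151.6, Egf at 2107 against 2548 to 2600 and Kmo at 199 against 162.1 to 162.6. In control mouse 3, Pdha1 stood at 627 CPM against 636.3 to 638.2. For C7, Khk, Ndufs1, Col4a1, Egf, Kmo and Pdha1 the mouse in question stayed on its own group's side of the other genotype.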

How the results depend on the processing

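The number of genes that rose and fell on NR in females was 2486 and 2252 by DESeq2, 1792 and 2002 by limma-voom, 1985 and 2091 without the count filter, 1989 and 1925 with the replicate number as a block, and 1000 and 201 with a 2-fold limit. A fit of the 16 females called 3073 lower. Leaving out 1 mouse gave 1547 (without control mouse 4) to 2550 (without Alport mouse 4) higher and 1419 (without control mouse 1) to 2445 lower. On vehicle the 2-fold limit left 1762 higher and 281 lower, and leaving out 1 mouse gave 3253 to 3884 and 2796 to 3768. The interaction of NR with genotype gave 11 higher and 19 lower by DESeq2, 2 and 1 without the count filter, and 0 to 21 and 0 to 24 with 1 mouse left out. In males on NR, DESeq2 called 1032 and 349, the lack of a count filter gave 180 and 11, a fit of all 32 mice 2335 and 2230, the replicate block 319 and 58, and leaving out 1 mouse 0 to 73 and 0 to 1. The interaction of sex with genotype gave 1 higher by DESeq2, and 0 higher and 0 to 2 lower with 1 mouse left out. For genes called in vehicle-treated males, the medians in females on NR became 1.03 and -0.77 with a 2-fold limit in males and ran from 0.53 to 0.63 and from -0.35 to -0.29 with 1 mouse left out. The causes were not tested.

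Of 193 genes tested by name, 189 kept direction and call by DESeq2, 183 by limma-voom, 192 with RLE size factors, 189 with the replicate block and 179 to 186 with 1 mouse left out. Limma-voom ended the calls of Gpnmb, Havcr1, H2-Aa, H2-DMb2, Hspb1, Mki67, Mgst2, Csf3r and Gdf15, and the fit of 32 mice those of Hmox1, Slc13a1, Acot3, Cfb and Csf3r. Acot3 also lost its call without control mouse 1 or 4, and Slc6a15 without control mouse 4. A further 3 genes changed sign, none of them called. Ltf was -0.0232 by limma-voom and ran from -0.27 to 0.42 with 1 mouse left out (lowest without Alport mouse 3, highest without Alport mouse 4). Bcat1 was 0.0177 without Alport mouse 3. Nrf1 was -0.0077 without the count filter, -0.0118 in the fit of 16 mice, -0.0132 in that of 32, and ran from -0.0376 (without Alport mouse 3) to 0.11 (without Alport mouse 1).

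Same-numbered mice were not known to share a litter or day, 3 of the 4 Alport mice correlated best with the control of their own number, and the block changed no count of calls in females by over 1.5 times apart from the class II, neutrophil, NRF2 and urothelial lists. Detection limits by depth or group size were not tested.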
